A study of Mus musculus with 30 samples.

Results

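Strong constitutive sites are stretches of open chromatin that gave a high ATAC-seq signal in mouse CD4 T cells whether the cells were naive or activated and whether or not they carried protein kinase A (PKA). They were chosen by their own ATAC values. A site was a member if its mean level was at least 20 CPM (its count divided by the sum of all site counts of the library, times 1000000) in each of 4 groups. In addition the log2 ratio of activated WT to naive WT, of KO to WT in naive cells and of KO to WT in activated cells each had to lie within 0.5 of 0. This rule found 5805 of 110808 sites, which is 5.24% of all sites. ATAC levels and contrasts of the members below describe the selection and carry no test. RNA, position and sequence were not used by the rule.

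The study concerns PKA and its target transcription factor CREB in the path of CD4 T cells to the Th1 fate. The cells were taken from lymph nodes and spleen of mice with intact PKA (WT) and of PKA knockout mice (KO). Naive cells were enriched with a CD4 kit and sorted, and activated cells had had 3 days of stimulation through CD3 and CD28. ATAC-seq and RNA-seq were done in naive WT, naive KO, activated WT and activated KO cells, and RNA-seq also in WT and KO cells that rested in IL-7 for 3 days and then received forskolin, an activator of adenylyl cyclase, at 1 ug/mL for 4 hours. Each group held 3 libraries per assay. The labels name neither the deleted PKA gene nor a Cre or promoter and leave unsaid if replicate libraries are from different mice, so p-values measure the spread between these samples, which may be technical.

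Most open chromatin that stays open across cell states lies at the promoters of broadly expressed genes and at sites bound by the insulator protein CTCF. Such promoters are rich in CpG dinucleotides and are bound by factors present in most cells, among them ETS factors, NRF1, YY1 and SP factors, and by CREB at its cyclic AMP response element (CRE). PKA, released by cyclic AMP, phosphorylates CREB bound to such elements.

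Promoters of 6 genes that the contrasts below turn on are printed here, each as the 200 bases before the annotated start. They were chosen after their values were seen, among genes with a member site over the start. Dusp1, a phosphatase of MAP kinases, and Plk2, a kinase of the polo family, had a full CRE and less RNA in activated KO cells. Dtl, the substrate adaptor of a ubiquitin ligase active in DNA replication, had a CRE and an NRF1 motif, and its RNA rose on activation in both genotypes. Mcm10, a replication factor, had an ETS and a YY1 motif. Gabpa, itself an ETS factor, and Psmc6, an ATPase of the proteasome, stand for genes whose RNA rose far less on activation than that of Plk2, Dtl and Mcm10. Capitals mark the full CRE (TGACGTCA), the ETS motif (CCGGAAG), the NRF1 motif (GCGCATGCG), the YY1 motif (AAGATGGC) and the GC box (GGGGCGGGG), on either strand. Sequences are from RefSeq on GRCm38.p6, 5′ to 3′ on the gene's strand. The 200 bases of Dusp1 are chr17:26508473-26508672, minus strand, and its CRE begins 143 bases before the start. Those of Plk2 are chr13:110394844-110395043, plus strand, with the CRE 62 and the GC box 49 bases before the start. Those of Dtl are chr1:191575545-191575744, minus strand, with the NRF1 motif 194 and the CRE 17 bases before the start. Those of Mcm10 are chr2:5012792-5012991, minus strand, with the ETS motif 128 and the YY1 motif 105 bases before it. Those of Gabpa are chr16:84834924-84835123, plus strand, with the ETS motif 93 and the YY1 motif 67 bases before it. Those of Psmc6 are chr14:45329624-45329823, plus strand, with the ETS motif 100 and the GC box 46 bases before it.
Dusp1: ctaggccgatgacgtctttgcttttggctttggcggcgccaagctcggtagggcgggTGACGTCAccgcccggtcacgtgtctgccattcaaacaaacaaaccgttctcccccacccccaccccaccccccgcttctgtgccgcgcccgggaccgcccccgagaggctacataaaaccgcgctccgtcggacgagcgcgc
Plk2: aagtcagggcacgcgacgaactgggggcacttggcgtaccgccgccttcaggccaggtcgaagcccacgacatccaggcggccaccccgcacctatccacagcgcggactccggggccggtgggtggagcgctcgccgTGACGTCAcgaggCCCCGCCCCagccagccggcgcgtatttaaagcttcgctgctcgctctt
Dtl: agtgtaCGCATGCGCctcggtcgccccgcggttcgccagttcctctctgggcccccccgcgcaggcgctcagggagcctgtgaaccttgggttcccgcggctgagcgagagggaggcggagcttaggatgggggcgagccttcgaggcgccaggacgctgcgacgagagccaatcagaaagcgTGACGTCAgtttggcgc
Mcm10: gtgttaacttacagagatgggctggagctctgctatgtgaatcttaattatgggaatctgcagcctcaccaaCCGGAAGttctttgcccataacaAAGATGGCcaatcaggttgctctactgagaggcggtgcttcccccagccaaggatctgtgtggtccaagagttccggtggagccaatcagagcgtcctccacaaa
Gabpa: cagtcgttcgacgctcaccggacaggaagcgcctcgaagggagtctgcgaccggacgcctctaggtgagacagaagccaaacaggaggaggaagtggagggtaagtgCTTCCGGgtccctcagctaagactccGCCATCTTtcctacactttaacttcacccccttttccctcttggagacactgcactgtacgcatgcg
Psmc6: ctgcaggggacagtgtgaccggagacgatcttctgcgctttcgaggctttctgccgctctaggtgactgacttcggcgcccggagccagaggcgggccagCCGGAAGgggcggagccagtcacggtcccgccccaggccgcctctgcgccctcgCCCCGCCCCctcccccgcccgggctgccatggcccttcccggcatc

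ATAC libraries held 18522373 to 25318916 counts in sites, and the members held 5766828 to 7479722 of them. A member had a median of 830 to 1097 counts per library and never fewer than 279, which keeps counting error low. RNA libraries held 8272201 to 11950488 counts in the naive and activated set and 7665955 to 11802115 in the forskolin set. Prkaca, the catalytic subunit alpha of PKA, had 29.3 to 55.5 CPM of RNA in the naive and activated WT libraries and 0.921 to 2.57 CPM in the KO libraries. In the forskolin set it had 32.4 to 36.7 CPM in WT and 2.72 to 3.90 CPM in KO, so the levels follow the labels in all libraries; RNA in bulk samples cannot tell fewer cells of a type from less RNA per cell. Cd3e and Cd4, which define the labelled cells, were present in all naive and activated libraries, with group means of 196 to 435 CPM and 537 to 1034 CPM. The summed RNA of 8 NK and CD8 T cell markers was 103 to 110.3 CPM in naive WT, 92.3 to 101 CPM in naive KO, 218 to 254 CPM in activated WT and 179 to 232 CPM in activated KO. The sums of 8 B cell and 8 myeloid markers stayed between 1.52 and 14.8 CPM and that of 7 erythroid markers between 2.23 and 23.3 CPM. B cell markers summed to 6.66 to 8.26 CPM in naive KO against 2.75 to 4.59 CPM in naive WT, and to 5.60 to 8.75 CPM in activated KO against 1.52 to 3.04 CPM in activated WT, without overlap in either state. A start was annotated for 4 B cell, 4 myeloid, 6 NK and CD8 T cell and 6 erythroid markers. None of these markers had a member at its start. The part of such cells in the results was not tested.

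Of all sites, 8898 reached 20 CPM in all 4 groups, and 65.2% of these became members. The limit on WT activation did most of the selecting. It was passed by 5847 of the 8898, with 2574 outside it lower and 477 outside it higher in activated cells. The limit on genotype in naive cells left out 10 of the 8898 and that in activated cells 91, of which 80 were lower in KO. The 3093 strong sites that failed a limit are called strong changing sites here and serve as the nearest set for comparison.

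Within their limits the members were not centred on 0. Their median log2 ratio of activated to naive WT was -0.20, with 74.3% of them lower, against a median of 1.09 over all sites. In naive cells the KO to WT median was -0.02, against 0.04 over all sites. In activated cells it was 0.12, with 4963 of 5805 higher in KO, against 0.04 over all sites. Strong changing sites had like medians, at -0.02 in naive and 0.12 in activated cells, with 2508 of 3093 higher in activated KO. For the members the ratio of activated KO to naive KO was not limited by the rule, although it follows from the other 3 ratios. It had a median of -0.07 and ran from -0.90 to 1.05, and 5582 members also kept within 0.5 on it, while 151 were higher and 72 lower. The median SD over 3 libraries was 0.0434 to 0.0642 on the log2 scale, well inside the limit of 0.5.

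The members took up a smaller share of the library after activation. They held 31.3% ± 0.149 (SD, n = 3) of counts in naive WT and 30.9% ± 0.525 (SD, n = 3) in naive KO. In activated cells they held 27.4% ± 0.126 (SD, n = 3) in WT and 29.5% ± 0.204 (SD, n = 3) in KO. The WT share after activation was the lowest of the 4 means, and the activated libraries did not overlap the naive ones. Strong changing sites held 22.7% to 23.7% of counts in naive libraries and 16.0% to 17.3% in activated ones.

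**Figure D1:**
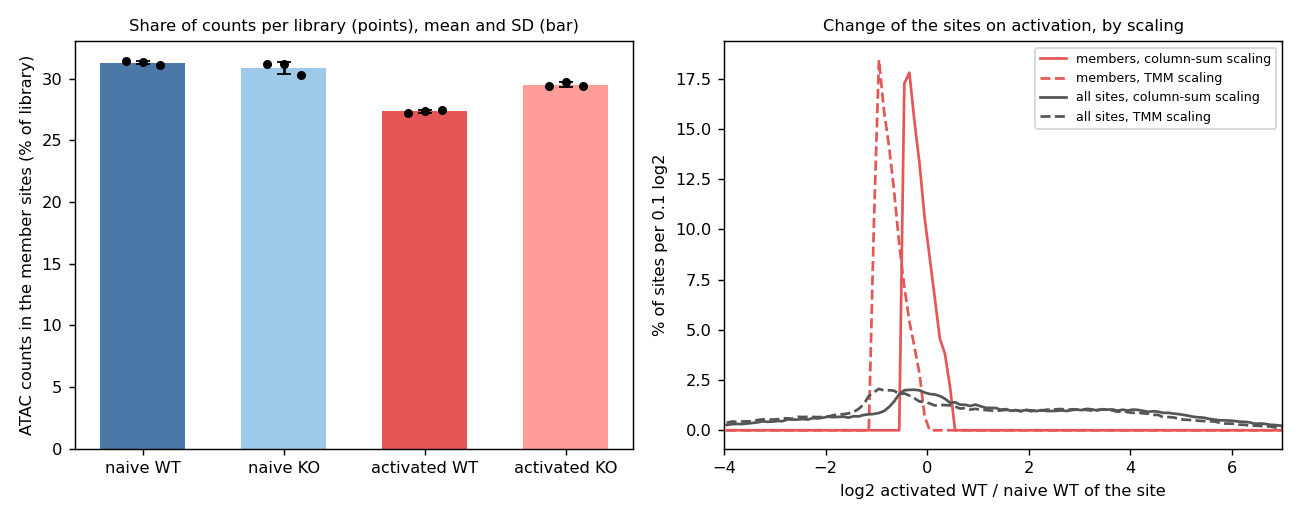
Left, the share of each ATAC library's counts that fell in the 5805 member sites (points, libraries; bars, group mean; error bars, SD of 3), which was about 31% in naive and 27.4% to 29.5% in activated groups. Right, the distribution of the log2 ratio of activated WT to naive WT over members and over all sites, in percent of sites per bin of 0.1, under column-sum and TMM scaling: the members moved from a median of -0.20 to -0.76.

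Whether the members count as unchanged by activation depended on the scaling. Under the trimmed mean of M-values (TMM), which sets the bulk of sites as the reference, the median member ratio of activated to naive WT was -0.76, every member was lower in activated cells and 1173 stayed within 0.5. Under relative log expression (RLE) scaling the median was -0.74 and 1308 stayed within. Over all sites the same median was 0.53 with TMM and 0.55 with RLE, since a scaling factor shifts all sites together. Ratios between genotypes moved little, and 5799 members kept the limit in activated cells with TMM.

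The authors' deposited tables compare KO with WT site by site. They call no member at an FDR under 0.05 in naive cells, where 0.0171% of all sites are called, and none in activated cells, where 5.16% of all sites are called. The lowest FDR of a member in the authors' deposited tables was 0.656 in naive and 0.863 in activated cells, and 6 members in naive and 0 in activated cells had a deposited p under 0.05. The quasi-likelihood test of edgeR on the counts, with TMM, called more in these selected sites. It called 40 members in naive cells, against 1.56% of all sites, and 1497 in activated cells, against 28.5% of all sites, of which 1320 were higher in KO. Between activated and naive cells it called 5698 members in WT, all lower, against 89.9% of all sites, and 5602 in KO, against 88.5% of all sites, of which 5595 were lower. The rule used these contrasts, so nothing is read from these counts.

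At each limit the nearest sites inside and outside were much alike. At the minimum level the 5 nearest members had a lowest group mean of up to 20.03 CPM and the 5 nearest others of at least 19.98 CPM. On WT activation the 5 nearest members, among them the site of Il6st, a receptor chain shared by the IL-6 family of cytokines, stood at -0.50 on the log2 scale, as did the 5 just outside. On genotype in naive cells the member nearest to the limit was the site before Fosl2, at -0.49, and the first one outside was the site at Nr4a1, at -0.52. On genotype in activated cells the 5 nearest members ran from -0.50 to 0.49 and the 5 nearest others from -0.52 to 0.51. Fosl2 and Nr4a1 are both known targets of CREB.

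The member with the highest mean level, 205 CPM, lay on chromosome 11 at 87591793 to 87592193, 10932 bases from the nearest listed start. Starts of part of the RefSeq genes are not listed, so a nearer start may be missing. The next was the site between Hdgfl2 and Ubxn6 on chromosome 17, at 56079187 to 56079587, which covers starts of both genes. It had 231, 226 and 235 CPM in naive WT, 239.5, 222 and 213 CPM in naive KO, 168, 171 and 168 CPM in activated WT, and 187, 194 and 185 CPM in activated KO. All 6 naive libraries were above all 6 activated ones, and the KO libraries were above the WT libraries after activation. The other 8 of the 10 highest members had means of 169 to 199.6 CPM. They included the starts of Cactin, of Fkbp2, an isomerase of the endoplasmic reticulum, of Prmt1, the main arginine methyltransferase, of Sec16a, an organiser of exit sites of the endoplasmic reticulum, of Nudt6 and Spata5, of Zfp78 and of Arrdc2, and a site on an unplaced scaffold.

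The members were mainly promoters. Starts could be assigned for 5673 members, since 132 lay on a chromosome or scaffolds with no start in the RefSeq table used here. Of the 5673, 4082 overlapped the 1000 bases either side of an annotated gene start, which is 72.0% (95% exact binomial interval 70.8% to 73.1%, for counting error only). The share was 63.2% for strong changing sites and 13.2% for all sites. Members at a start had a median level of 48.6 CPM in naive WT, and those away from starts 37.8 CPM.

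Their placement around the start was tight. The centre of a member at a start lay a median of 41 bases upstream of it, with quartiles at -85 and -2, and 87.5% of the centres were within 200 bases. The same share was 81.6% for strong changing and 64.1% for all sites at a start. All but 5 members, 5800, were 400 bases wide. Among members at a start, 898 (22.0%) covered starts on both strands, against 20.8% of strong changing and 14.0% of all sites at a start.

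**Figure D2:**
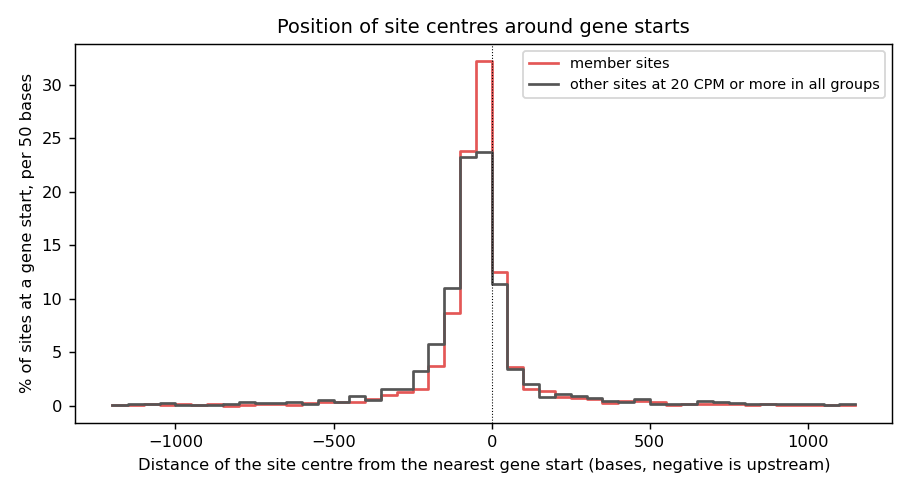
Distance of the site centre from the nearest gene start in bases (negative, upstream), as percent of sites at a start per 50 bases, for members and for other sites at 20 CPM or more in all groups. Both peak just upstream of the start, and the members more tightly, with 87.5% against 81.6% of centres within 200 bases.

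Of the 1591 members away from starts, 692 (43.5%) lay within 1000 bases of an end of a RefSeq gene that the table of starts does not hold. That left 899, or 15.8% of the members with an assignment, against 27.0% of strong changing and 81.7% of all sites. Of the members away from starts 80.0% lay inside a gene span, and their median distance to a listed start was 18772 bases. Members were spread over the genome with a median gap of 97275 bases between neighbours, and 10 gaps were under 1000 bases. Chromosome 7 had 7.53% of its sites among the members, chromosome 12 had 4.03% and the X chromosome 4.37%.

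The promoter windows under the members and under strong changing sites were alike in base composition and close in most motifs, and both differed from windows at large. Windows of 250 bases before to 50 after the start were taken from RefSeq (GRCm38.p6), and 4951 windows overlapped a member. Their median GC content was 62.7%, against 52.7% over all 32851 windows, and they held a median of 24 CpG, against 7. Windows under strong changing sites had 63% GC and 25 CpG. The ETS motif CCGGAAG was in 25.3% of member windows and 8.86% of all windows. NRF1, as GCGCATGCG, was in 5.27% and 1.75%, YY1, as AAGATGGC, in 6.46% and 2.75%, and the GC box GGGGCGGGG in 25.2% and 11.4%. In strong changing windows ETS was in 22.0%, NRF1 in 3.82%, YY1 in 5.89% and the GC box in 28.0%, so the GC box was no more frequent in the members. The full CRE, TGACGTCA, was in 4.16% of member windows and 1.79% of all, and in 4.68% of strong changing windows. The AP-1 motif TGANTCA, bound by Fos and Jun proteins that T cell activation induces, was in 3.68% of member windows and 7.81% of all. RUNX, as TGTGGTT, was in 3.62% and 5.27%. In strong changing windows AP-1 was in 3.55% and RUNX in 2.74%. Both strands were searched. The shorter CRE core TGACG, which overlaps every full CRE, was in 37.3% of member windows and 20.8% of all. It was in 44.2% of strong changing windows, so neither form of the CRE was more frequent in the members than there.

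Windows of like GC content were then set side by side. Between 60% and 70% GC, the ETS motif was in 28.2% of 2261 member windows and 9.53% of 1826 windows with no site. The CRE was in 4.60% and 1.86% of them, and NRF1 in 5.71% and 1.53%. The GC box was closer, at 27.2% and 18.7%. AP-1 was in 3.32% and 4.82% of them. Strong changing windows of that band held ETS in 25.1% and NRF1 in 3.44%, closer to the members than the windows with no site. Their CRE share, 4.75%, was no lower than that of the members. CTCF, searched by its core motif, was in 1.11% of member windows, 0.585% of strong changing windows and 0.557% of all. These windows lie at starts and not at the distal sites where CTCF mostly binds.

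Most genes with a member at the start were transcribed in these cells. There were 4959 RefSeq genes with a member at a start, 88.55% of them protein coding against 64.7% in the table of starts. In the RNA table of naive and activated cells 4544 symbols matched, and 4309 of them (94.8%) passed the filter on low counts. Strong changing genes passed at 95.3%, genes with another site at 51.1% and genes with no site at 10.6%. All RNA results below are for the 4309, or 4272 in the forskolin set, and 923 members served the starts of several genes at once.

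Gene families of basic cell functions were most often served by a member. Of all genes with an annotated start 26.2% had one, and of those tested in RNA 46.05%. Cytoplasmic ribosomal protein genes had a member at 44 of 58 starts, subunits of RNA polymerase II and general transcription factors at 21 of 30, CTCF, cohesin and loop factors at 7 of 10, and proteasome subunits at 19 of 28. Translation factors had one at 20 of 31, respiratory chain genes at 25 of 39, replication and mitosis genes at 16 of 25, splicing factors at 23 of 36, and chromatin remodellers and histone modifiers at 22 of 35. T cell lists were lower. Surface and T cell receptor genes had 5 of 10, lymphoid transcription factors 9 of 21, cyclic AMP and CREB targets 7 of 20, PKA and CREB family genes 6 of 18, proximal T cell receptor signalling genes 5 of 17, T cell activation genes 5 of 18, and IL-12 and Th1 genes 3 of 16.

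**Figure D3:**
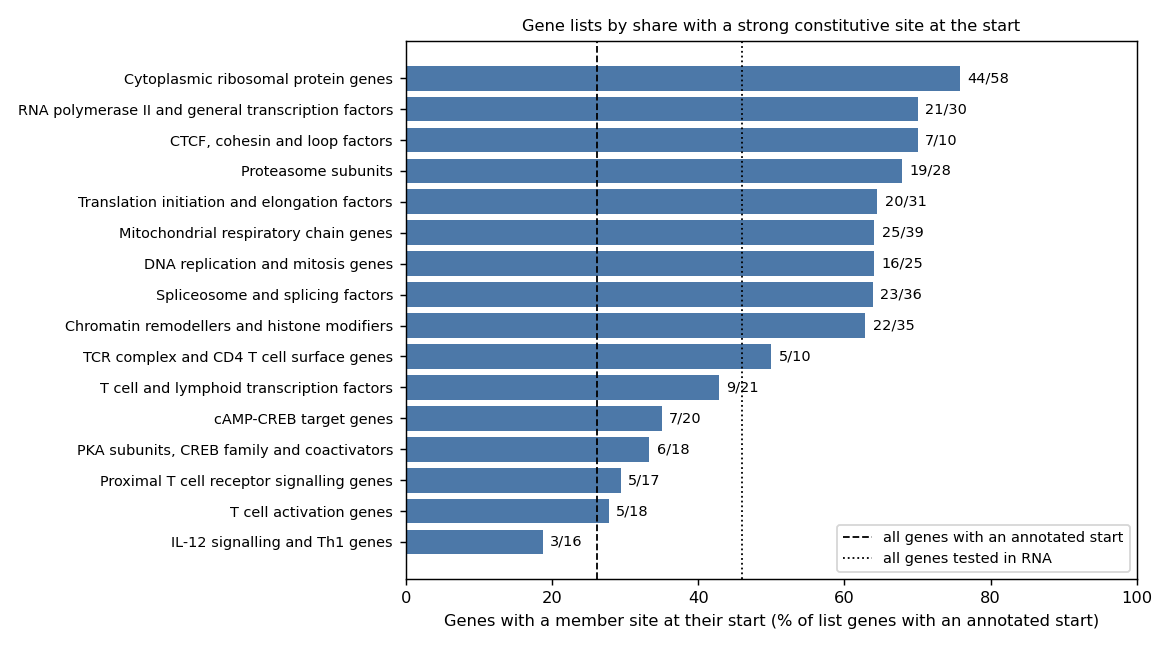
Percent of the genes of each list with an annotated start that have a member at that start (numbers, genes with a member over genes with a start). Dashed and dotted lines give the share over all genes with a start, 26.2%, and over genes tested in RNA, 46.05%. The lists of basic cell functions lie between 62.9% and 75.9%, and those of T cell genes start at 18.8%.

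RNA of these genes changed on activation about as often as that of other genes, and by less. In WT, edgeR's quasi-likelihood test called 1952 of the 4309 higher in activated cells, or 45.3%, against 42.3% of all genes tested, and 1599 lower, or 37.1%, against 40.3% of all genes. A log2 change of 1 or more was called for 36.6% of the genes with a member, 41.0% of strong changing genes and 46.8% of all genes. In KO cells 1941 were higher, with 42.3% over all genes, and 1577 lower, with 39.8% over all genes. The median RNA change in WT was 0.11 for genes with a member and 0.03 for all genes, and 107 genes with a member (2.48%) rose by 4 or more while 6 (0.139%) fell by 4 or more. Over all genes tested these shares were 6.35% and 1.64%, so both were lower among genes with a member.

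By CPM, genes whose member rose within the limits more often had higher RNA. Where the member fell by 0.25 to 0.5 on activation of WT cells, 40.5% of 2070 genes had higher and 41.2% lower RNA, with a median RNA change of -0.02. Where it rose by 0.25 to 0.5, 62.3% of 244 genes had higher and 25% lower RNA, with a median of 0.63. The bands between had medians of 0.14 and 0.34. With TMM or RLE scaling every member was lower in activated WT, so the upper bands then hold members that fell less. The rule also bounded this ratio at 0.5 either side. These shares describe the genes, which share libraries, and carry no test.

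**Figure D4:**
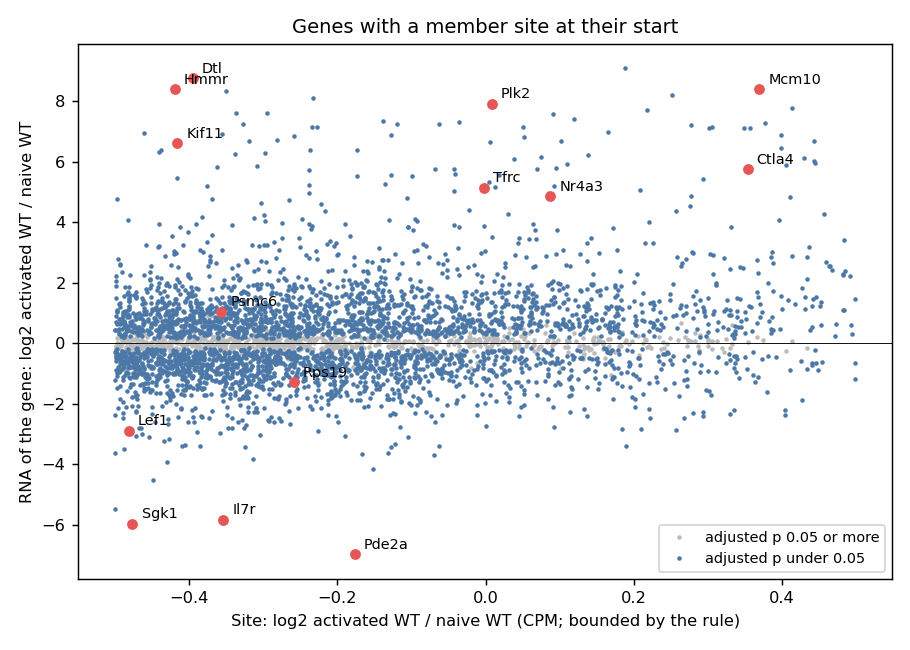
RNA log2 change on activation in WT against the log2 change of the member at the gene's start, one point per gene with a member, blue where the adjusted p of edgeR for RNA is under 0.05, red and labelled for genes named in the text; the x axis is bounded at 0.5 either side by the rule. RNA of Dtl and Mcm10 rose by over 8 and that of Pde2a fell by 6.98 on the log2 scale, with site changes within the limits.

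Replication and mitosis genes had the highest median change of the 16 lists with tested genes. All 16 with a member and enough RNA were called higher in activated WT cells, with a median of 5.52, and all 16 in activated KO cells, with a median of 5.35, while edgeR called none between genotypes in naive cells (3 at an unadjusted p under 0.05, 1 by DESeq2) or in activated cells (0 at that p, 0 by DESeq2). Kif11, a motor of the mitotic spindle, had 1.38, 1.68 and 3.02 CPM in naive WT and 197, 225 and 215 CPM in activated WT. Its change was 6.62 ± 0.14 (SE, adjusted p = 3.37e-17, edgeR quasi-likelihood test), and its member went from 102 to 76.1 CPM.

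Mcm10 RNA had 0.212, 0.443 and 0.242 CPM in naive WT and 116, 119 and 120 CPM in activated WT, a change of 8.40 ± 0.18 (SE, adjusted p = 4.12e-17, edgeR). Its member had 34.7, 36.5 and 32.4 CPM in naive WT and 43.2, 43.5 and 47.0 CPM in activated WT. By CPM the groups do not overlap in either assay, and the site, already open in naive cells, rose by 0.37 on the log2 scale. That rise depended on the scaling, since with TMM or RLE every member was lower in activated WT.

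Dtl RNA had 0.319, 0.0886 and 0.242 CPM in naive WT and 105, 99.1 and 106 CPM in activated WT, with a change of 8.76 ± 0.18 (SE, adjusted p = 1.94e-17, edgeR). Its member, which also lies at the start of Ints7, fell by 0.39. Ints7 RNA had a mean of 41.4 CPM in naive WT and 81.8 CPM in activated WT. Dtl RNA in activated KO against WT cells stood at 0.01 ± 0.08 (SE, adjusted p = 0.981, edgeR). The Dtl promoter holds a CRE, and whether that element acts in these cells was not tested. Hmmr and Ube2c, both mitotic genes, rose by 8.40 and 8.21. Nek2, E2f7 and H3c3 also rank among the 8 largest rises, but their naive WT libraries held 3, 1 and 1 counts in all, so only their activated WT sums of 2224, 534 and 361 counts are given.

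The other families are read against 42.3% of all genes higher and 40.3% lower in activated WT. All 19 proteasome genes rose, with a median of 1.21, among them Psmc6 by 1.04 ± 0.12 (SE, adjusted p = 6.75e-07, edgeR) with 46.8, 46.3 and 61.0 CPM in naive WT and 111, 112 and 122 CPM in activated WT. Ribosomal protein genes went the other way, with 37 of 44 lower, 1 higher and a median of -0.89, such as Rps19 at -1.29 and Rpl13a at -1.44. Ribosomal protein genes have many processed copies, so their counts are uncertain. Of 23 splicing factors 19 were higher and 2 lower, and of 21 RNA polymerase II and general factors 16 and 2. Of 24 respiratory chain genes 19 were higher and 1 lower, and of 20 translation factors 13 and 4. Chromatin regulators were divided, with 10 of 22 higher and 8 lower. All of these rest on members that the rule holds within 0.5, and their directions were the same under RLE and upper-quartile scaling for the ribosomal, proteasome and replication lists.

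T cell lists with a member were small and went in both directions, beside 42.3% of all genes higher and 40.3% lower. Among lymphoid transcription factors 7 of 9 were lower and 2 higher, and all 5 genes of proximal receptor signalling were lower. Of 5 T cell surface genes 2 were higher and 3 lower, and of 5 T cell activation genes 3 were higher and 2 lower, with a median of 0.74. Lef1, which with TCF-1 maintains naive T cells, had 482, 558 and 452 CPM in naive WT and 71.2, 74.1 and 75 CPM in activated WT, a change of -2.88 ± 0.08 (SE, adjusted p = 6.85e-16, edgeR). Bcl11b fell by 2.38, Zbtb7b, the factor of CD4 lineage choice, by 1.72, and Ikzf1 by 1.04, while Gabpa rose by 0.23 and Id3 by 1.33.

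Il7r, the receptor for IL-7 on resting T cells, had 641, 760 and 703 CPM in naive WT and 17.6, 11.9 and 10.9 CPM in activated WT, a change of -5.83 ± 0.17 (SE, adjusted p = 3.45e-13, edgeR). Its member had 33.5 CPM in naive WT and 26.2 CPM in activated WT. Pde2a, a phosphodiesterase that degrades cyclic nucleotides, fell by 6.98 and Sgk1 by 5.96, while Ctla4, an inhibitory receptor, rose by 5.76 and Tfrc, the transferrin receptor, by 5.14. The members of Tfrc and Pde2a changed by -0.00 and -0.18. CTCF itself fell by 0.56 and the cohesin loader Mau2 by 1.13, and of the 7 loop factors 4 fell and 1, the cohesin subunit Smc1a, rose by 0.32.

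Between genotypes few of these genes differed in naive cells. The quasi-likelihood test called 3 of 4309 higher in KO, against 0.125% of all genes, and 2 lower, against 0.117% of all genes. F2r, a thrombin receptor, had 19.6, 19.4 and 21.4 CPM in naive WT and 32.8, 30.8 and 38.2 CPM in naive KO, and Racgap1 and Trim59 were higher by 0.70 and 0.67. Fosl2 and the motor Myo10 were lower by 1.13 and 0.66. The calls of Racgap1, Trim59 and Myo10 were lost in 1 or more alternatives, with adjusted p up to 0.279, 0.223 and 0.110 by edgeR or DESeq2. The count of 5 was 2 without naive KO replicate 3 or naive WT replicate 2, 3 without naive KO replicate 1 or activated KO replicate 2, 9 with the replicate number as a block and 11 by DESeq2.

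In activated cells 199 of the 4309 were higher in KO, or 4.62%, against 5.89% of all genes, and 313 lower, or 7.26%, against 9.04% of all genes. A difference of 1 or more (log2) was called for 14 (0.325%) in the higher and 22 (0.511%) in the lower direction, against 1.48% and 2.16% of all genes. Of 1895 strong changing genes 4.91% were higher and 11.2% lower in activated KO. A difference of 1 or more was called for 1.90% of them, against 0.84% of genes with a member and 3.64% of all genes. The shares of genes with a member were below the background in both directions. Upper-quartile scaling, which moved the median of all genes from 0.01 to 0.06, turned the balance, with 325 higher and 225 lower. No named gene that was called with TMM reversed its direction under it. Changes of direction in genes that were not called were not counted. Without activated KO replicate 3 the 512 calls fell to 301 and without replicate 2 to 319.

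Among 7 targets of cyclic AMP and CREB with a member, 6 had less RNA in activated KO cells, none had more, and the median was -0.98, against a median of 0.01 over all genes with a member. Nr4a3, an orphan nuclear receptor induced by CREB, had 274, 304 and 325 CPM in activated WT and 89.1, 93.6 and 88.1 CPM in activated KO, a difference of -1.76 ± 0.08 (SE, adjusted p = 2.37e-11, edgeR). Its member had 69.3, 68.3 and 71.0 CPM in activated WT and 59.5, 56.7 and 54.1 CPM in activated KO. The KO libraries were lower without overlap in both assays, with the site within the limit by selection.

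Fosl2, a Fos family subunit of AP-1, had 105, 92.5 and 86.6 CPM in activated WT and 17.2, 18.9 and 18.8 CPM in activated KO, a difference of -2.40 ± 0.13 (SE, adjusted p = 1.23e-09, edgeR). In naive cells it had 25.3, 23.0 and 16.7 CPM in WT and 12.6, 9.36 and 8.17 CPM in KO, a difference of -1.13 ± 0.15 (SE, adjusted p = 0.00179, edgeR). Its member is centred 685 bases upstream of the start. It had 82.2, 69.3 and 71.8 CPM in naive WT and 56.4, 55.3 and 47.0 CPM in naive KO, then 105, 91.6 and 94.1 CPM in activated WT and 75.6, 80.4 and 75.2 CPM in activated KO. Again WT and KO did not overlap in either state, with the site inside the limits by selection.

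Dusp1 RNA had 18.4, 23.4 and 21.3 CPM in activated WT and 11.3, 9.85 and 11.4 CPM in activated KO, a difference of -0.98 ± 0.15 (SE, adjusted p = 0.000189, edgeR). Its member, with the CRE printed above, was not lower in KO, at 74.0 CPM in activated WT and 80.1 CPM in activated KO. Pde4b, a phosphodiesterase that degrades cyclic AMP, was lower by 1.15, Per1, a clock gene, by 0.81 and Junb, a Jun family subunit of AP-1, by 0.39. Fosb stood at -0.69 ± 0.24 (SE, adjusted p = 0.0619, edgeR) and was not called. The members of Per1 and Junb differed between activated KO and WT by -0.07 and 0.03, while those of Fosl2, Nr4a3 and Pde4b differed by -0.33, -0.29 and -0.30.

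**Figure D5:**
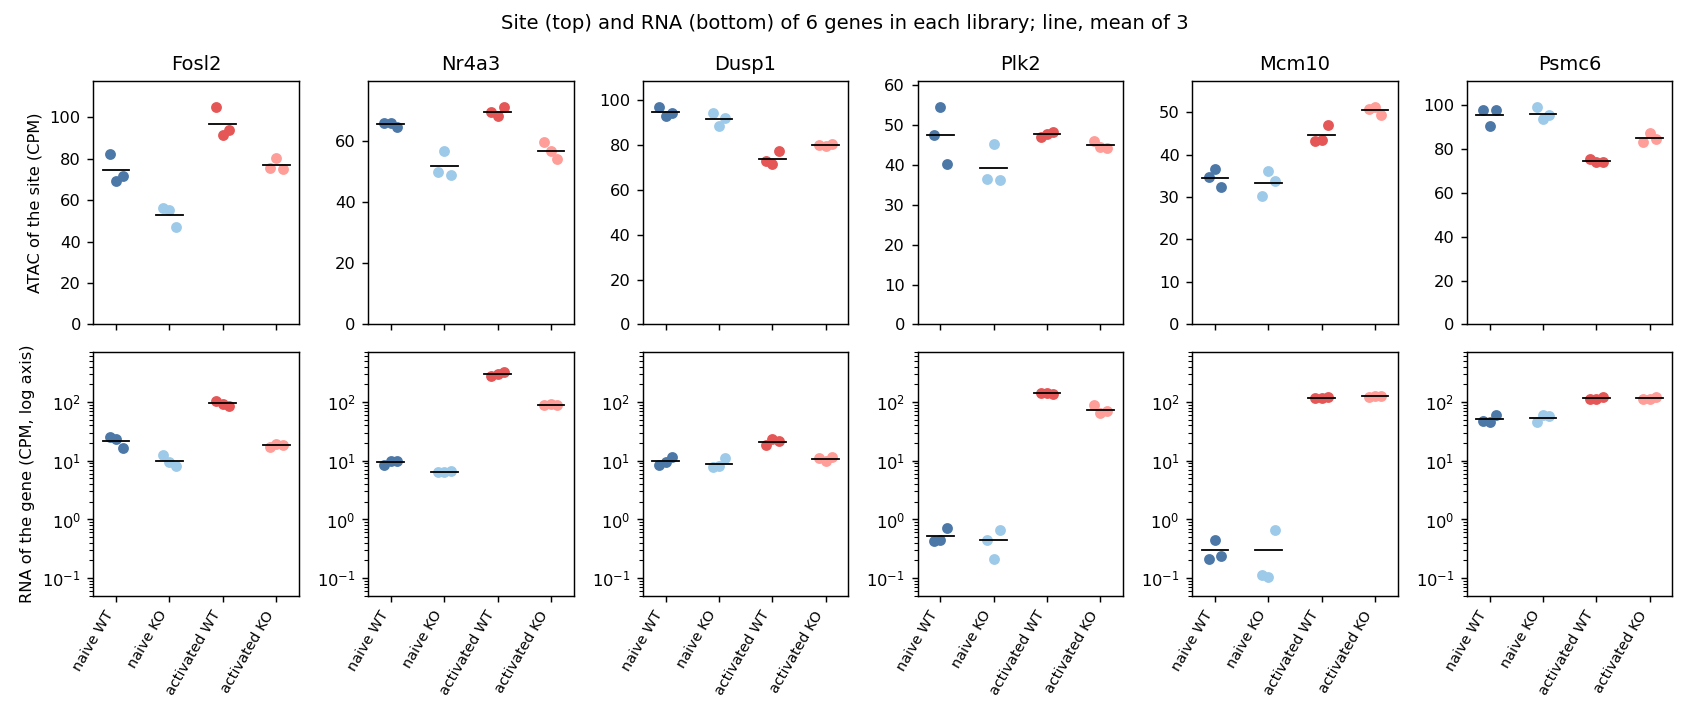
Level of the member at the start (top, CPM, linear axis from 0) and RNA of the gene (bottom, CPM, log axis) in each of 3 libraries per group for 6 genes; lines are group means. RNA of Nr4a3 lies at 88.1 to 93.6 CPM in activated KO against 274 to 325 CPM in activated WT, and RNA of Mcm10 rises in both genotypes, while the sites change far less.

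Genes outside that list differed too. Klf4, a zinc finger factor of quiescence, had 20.4, 19.8 and 17.7 CPM in activated WT and 1.76, 1.93 and 1.75 CPM in activated KO, a difference of -3.43 ± 0.21 (SE, adjusted p = 3.26e-09, edgeR), and its member differed by -0.14. Ctla4 had 139, 153 and 146 CPM in activated WT and 36.5, 45.3 and 42.3 CPM in activated KO, a difference of -1.84 ± 0.11 (SE, adjusted p = 2.08e-09, edgeR). Its member, at 33.1, 39.1 and 38.7 CPM in activated WT and 27.1, 31.2 and 29.6 CPM in activated KO, was also lower in KO without overlap. Hif1a, the oxygen-sensing factor, was lower by 1.48, the integrin chain Itgav by 1.58 and Nabp1 by 1.79, with site differences of -0.02, -0.15 and -0.06. Among the genes higher in activated KO were Snn at 1.36, Ift74 at 1.32, Igsf9 at 1.31, Gprin3 at 1.19, Tmem154 at 1.18 and the zinc transporter Slc39a8 at 1.04. The members of Igsf9 and Gprin3 were higher too, by 0.45 and 0.40. Arrdc4 was called at 1.14 (adjusted p = 0.0475, edgeR), a call that 11 alternatives lost.

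PKA and CREB family genes with a member changed in both directions. Sik3, a kinase that PKA phosphorylates, was lower in activated KO by 0.81 ± 0.09 (SE, adjusted p = 4.76e-06, edgeR), with 194, 165 and 174 CPM in WT and 107, 102 and 101 CPM in KO. Prkar1a, a regulatory subunit of PKA, was lower by 0.31 and the CREB coactivator Crtc1 higher by 0.39, both calls that some alternatives lost, with adjusted p up to 0.0611 and 0.202. Atf1, a CREB family factor, stood at -0.03 and the anchoring protein Akap8 at 0.03, and neither was called. Prkar1b, another regulatory subunit, had a member at its start but too little RNA to be tested in naive and activated cells. After forskolin it had 0.261, 0.496 and 0.215 CPM in WT and 4.32, 3.30 and 3.99 CPM in KO, higher by 3.53 ± 0.39 (SE, adjusted p = 1.4e-08, edgeR).

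Of the IL-12 and Th1 list 3 genes had a member. Ifngr1, a chain of the interferon gamma receptor, had 27.9, 29.8 and 26.1 CPM in activated WT and 17.3, 18.1 and 14.4 CPM in activated KO, a difference of -0.77 ± 0.17 (SE, adjusted p = 0.00779, edgeR). Irf1, an interferon-induced factor, was higher in KO by 0.37 ± 0.08 (SE, adjusted p = 0.00364, edgeR), and Tyk2, a kinase of the IL-12 receptor, stood at 0.09 (adjusted p = 0.456, edgeR). Their members differed by -0.06, 0.18 and 0.09.

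Of 44 ribosomal protein genes 1 was called higher and none lower, while upper-quartile scaling called 9 higher. Of 19 proteasome genes the immune subunit Psmb9 was called, higher by 0.38 ± 0.08 (SE, adjusted p = 0.00347, edgeR). Of the 87 replication, translation, splicing, RNA polymerase II and loop factor genes none was called by edgeR or DESeq2, 6 had an unadjusted p under 0.05, and upper-quartile scaling called 2. Their list medians lay between -0.07 and 0.06. Among T cell surface genes Cd5 was lower by 0.64 ± 0.07 (SE, adjusted p = 2.73e-06, edgeR), and Il7r by 0.89 ± 0.19 (SE, adjusted p = 0.00545, edgeR). Gata3, the Th2 factor, was lower by 0.49, and Id2, an inhibitor of E proteins, higher by 0.52.

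The genotype difference itself changed between naive and activated cells for some genes. The interaction was called for 40 of the 4309 in the upward direction, where 1.18% of all genes were called, and for 94 in the downward direction, where 2.52% of all genes were called. Upper-quartile scaling gave 58 and 74. The 134 calls fell to 82 and 85 without activated KO replicates 2 and 3 and to 89 without naive KO replicate 3. These comparisons share their naive and activated libraries with the others above, so the counts are not independent of them.

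After forskolin more genes with a member were called between the genotypes, in a fit of its own. The series holds no rested library without forskolin, so effects of forskolin and of the rest in IL-7 cannot be told apart. Of 4272 genes with a member 867 were higher in KO, or 20.3%, against 19.7% of all genes, and 794 lower, or 18.6%, against 18.8% of all genes. All 6 tested CREB targets with a member were lower in KO. No ATAC library was made under forskolin, so no site values stand beside these.

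Fosl2 had 786, 829 and 768 CPM in forskolin WT and 10.8, 4.36 and 2.90 CPM in forskolin KO, a difference of -7.02 ± 0.35 (SE, adjusted p = 0.000183, edgeR). Nr4a3 had 16.3, 20.9 and 15.2 CPM in WT and 1.27, 1.28 and 0.725 CPM in KO, a difference of -4.01 ± 0.21 (SE, adjusted p = 1.96e-15, edgeR). Ifngr1 had 1157, 1136 and 1187 CPM in WT and 93.0, 90.1 and 98.8 CPM in KO, a difference of -3.65 ± 0.04 (SE, adjusted p = 6.97e-32, edgeR). No KO library reached a WT library in these 3 genes. Ctla4 was lower by 2.44, Dusp1 by 1.48, Per1 by 1.06 and Sik3 by 0.98, and Rgs9, Wdr90, Adk and Fanci by 4.13, 2.29, 1.93 and 1.83. Rgs9 rested on 126 counts in WT and 9 in KO. On the other side Id3, with 3.52, 3.59 and 3.76 CPM in WT and 13.2, 11.7 and 12 CPM in KO, was higher by 1.74, and Coro2a, Vim and Idi1 by 3.64, 1.78 and 1.61. Plk2 and Klf4, lower in activated KO, stood at 0.27 and 0.36 here and were not called.

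Genes whose member promoter holds a full CRE were compared with all genes with a member over the start window. In activated cells 17 of 172 were lower in KO, or 9.88%, and 4 higher, or 2.33%, beside 7.21% lower and 4.61% higher among the 3995 genes of all member windows. The lower share was not particular to the CRE. It was 11.4% for the KLF motif CCCCACCC, 11.2% for the NFKB motif GGGANTTCC and 10.4% for the GC box, and 4.66% for ETS. For the shorter core TGACG it was 7.27%, with 3.60% higher. The lowest gene with a full CRE was Dcun1d3 at -1.01, followed by Dusp1, Arl4d at -0.97 and Plk2 at -0.94. Plk2 had 142, 142 and 137 CPM in activated WT and 87.4, 65.7 and 69.4 CPM in activated KO (adjusted p = 1.77e-06, edgeR), and its member had 47.7 and 44.8 CPM. After forskolin 49 of 165 were lower in KO, or 29.7%, and 24 higher, or 14.5%, beside 18.2% and 20.5% of all member windows. On activation of WT cells 52.9% of the 172 were higher, beside 46.2%. Windows with an E box, CACGTG, had 33.1% of 468 genes higher and 13% lower in KO after forskolin, and those with the ETS motif had 16.8% higher and 17.2% lower. These shares carry no test, and between genotypes most genes with a full CRE were called in neither direction, in activated cells and after forskolin. On activation of WT cells 31.4% were lower, so most were called there.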

How the data were processed

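ATAC-seq gave 12 libraries and RNA-seq 18, in groups of 3, from mouse CD4 T cells. The deposited counts are whole numbers per site or per gene, made by the authors on mm10, per the submitters' processing notes; aligner, counter, peak caller and strand setting are not given in the sources used here. The authors' deposited ATAC tables also hold log2 values (mean concentration and fold), a p-value and an FDR for KO against WT, per the file headers. Both ATAC tables were joined by chromosome, start and end. A site's CPM is its count divided by the column sum, times 1000000.

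RNA counts were tested with edgeR 4.0.16 (filterByExpr, TMM, robust quasi-likelihood test, Benjamini-Hochberg adjustment over all genes, threshold 0.05) in R 4.3.3, with one fit for the naive and activated libraries and another for forskolin. Of 27179 RNA entries 1314 had no symbol (0.128% to 0.159% of counts) and were left out. Gene starts and promoter sequences came from RefSeq (GRCm38.p6), whose chromosomes match mm10. Alternatives were TMM and RLE scaling of ATAC counts, other limits, other start windows, RLE and upper-quartile scaling of RNA, other filters, DESeq2 1.42.0, a threshold of 0.01, the replicate block and each library left out. Tested on simulated data, the edgeR step recovered 94% of changes of 1 and 100% of changes of 2 (log2) between activated genotypes among 11980 genes, with 8 unchanged genes called. The changed genes were drawn from well-expressed genes only, with the same spread for every gene and no effect of replicate number. The recovery therefore does not describe genes of few counts.

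The members and gene lists were chosen with earlier results of these data known. Named sites are the 10 with the highest mean CPM and the 5 on each side of each limit. Named genes are those of 6 T cell, loop factor and PKA lists with a member at the start, the 3 with the highest site level in each other list, and the 8 largest called changes per direction in each RNA comparison, where the libraries of the groups did not overlap and the higher one had 5 CPM or more. Unnamed models, receptor segments and sex-linked genes were left out of the last. The genes with a full CRE were chosen after their values were seen. Replicate numbers come from the labels. Same-numbered libraries deviated together (r of 0.28 to 0.614) between activated WT and KO and less so (0.115 to 0.396) between naive and activated cells, and not in all pairs of naive WT and KO (-0.051 to 0.496).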

Additional observations from a re-analysis of the deposited data

Results flagged for a closer look

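The difference between KO and WT RNA was not the same in naive and activated cells for 29 named genes with a member at the start, by the interaction term of edgeR's quasi-likelihood fit. Values are the activated difference minus the naive one, on the log2 scale.

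Of the 7 tested targets of cyclic AMP and CREB, 4 were called with a lower difference in activated cells, and the rest were not called. Fosl2 had -1.26, Nr4a3 -1.21, Pde4b -1.20 and Dusp1 -0.83. Of 5 T cell surface genes 3 were called in the same direction, Ctla4 at -1.92, Il7r at -1.08 and Cd5 at -0.63. Sik3, a kinase that PKA phosphorylates, had -0.73. Among other genes Klf4 had -3.48, Gpr146 -1.85, Nabp1 -1.58, Itgav -1.46 and Hif1a -1.34. Nek2 had -2.30, with 3 counts in all in naive WT, Myh10 -1.92, Pcgf5 -1.54, Racgap1 -0.72, Trim59 -0.67, Idi1 -0.62 and Rasa3 -0.40.

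In the other direction Ift74 had 1.59, Snn 1.41, Tmem154 1.28, Gprin3 1.25, Slc39a8 0.98, Slc44a1 0.97, Shf 0.92, Scly 0.90 and Orai2 0.44. The calls of Dusp1, Idi1, Il7r, Myh10, Nek2, Orai2, Racgap1, Rasa3, Shf and Trim59 were lost in 1 or more alternatives. Racgap1 and Trim59 differed in naive and not detectably in activated cells.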

How the results depend on the processing

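The set of sites depended on the scaling and limits. With TMM there were 1584 sites, 57.84% at a gene start, and with RLE 1711 and 58.64%, of which 1078 and 1211 were members. A minimum of 10 CPM gave 61.32% at a start. A minimum of 40 CPM gave 2767 sites and 79.42%, and a log2 limit of 0.25 gave 2606 sites. Windows of 250 bases before to 50 after the start gave 67.11%, and gene spans with 10000 bases either side 98.47%. Leaving out an ATAC library gave 5747 to 5858 sites and 71.69% to 72.1%.

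Counts of called genes followed the size of the set. For activated KO against WT, activation in WT, activation in KO, the interaction and forskolin they were 123, 747, 752, 32 and 351 with TMM and 131, 813, 821, 32 and 373 with RLE. They were 288, 1953, 1933, 75 and 957 at 40 CPM, 216, 1581, 1579, 51 and 714 at a limit of 0.25, and 880, 5486, 5463, 226 and 2591 with gene spans. The naive count of 5 was 3 with RLE, 2 at 40 CPM, 1 at a limit of 0.25, 10 with gene spans, 9 with the replicate block and 11 by DESeq2. At a threshold of 0.01 the naive, activated KO against WT and interaction counts were 3, 250 and 61.

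Leaving out an RNA library gave 2 to 7 calls in naive cells, 301 to 599 for activated KO against WT, 3429 to 3567 and 3390 to 3568 for activation in WT and KO, and 82 to 138 for the interaction. For forskolin it gave 1414 to 1530, below the 1661 with all libraries in each case. Leaving out an ATAC library, which changes the sites and not the tests, gave 4 to 6, 503 to 520, 3498 to 3574, 3465 to 3544, 129 to 136 and 1638 to 1675. With the replicate number as a block the other counts were 591, 3585, 3547, 173 and 1755, each within 1.5 times of the count without it. Over named genes and settings 11642 results stayed called or stayed not called, 208 lost the call and 66 gained it. Among results called with TMM 0 reversed direction. Changes of direction in results that were not called were not counted. Motifs in the central 200 bases of each site were not run, because no genome was used here. With 3 libraries a group, small differences were not detectable in genes of few counts.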
